A study of Mus musculus with 12 samples.

Results

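The genes described here are 10 immediate-early genes of the mouse: Fos, Fosb, Jun, Junb, Jund, Egr1, Ier2, Ier3, Atf3 and Btg2. They were found by matching the gene IDs of the deposited count tables to mouse symbols, which gave 1 ID for each symbol, 10 of 55421 IDs in all. RNA was sequenced from the pituitary of C57BL/6 mice in 12 libraries, 3 in each of 4 groups, which are called here by their titles. The cre_AA14 group carried the genotype Cga-creAAV Gpr101fl/fl and received AA14, a ligand in the study's title, for 1 week, and cre_Vehicle had the same genotype with control vehicle for 1 week. The ctrl_AA14 and ctrl_Vehicle groups carried Cga-ctrlAAV Gpr101fl/fl and received AA14 or control vehicle for 1 week. All 4 groups therefore shared the floxed Gpr101 alleles and an AAV, and they differed in the virus and in the treatment. Cga, the gene of the alpha subunit shared by the glycoprotein hormones, stands in the genotype beside the virus, and the labels say no more about how cre was driven or delivered. The pituitaries were dispersed into single cells, and a flow cytometry step is part of the design. The labels used here give neither age nor sex. Nothing says that the 3 libraries of a group came from separate mice, so p-values measure the spread between libraries, which may be technical.

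Immediate-early genes are transcribed within minutes of a stimulus without new protein synthesis, typically through cyclic AMP and CREB or through MAP kinases and serum response factor. Their transcripts are short-lived, so levels depend on how recently a cell was stimulated, and dissection and dispersal of a tissue are among the known stimuli. Fos and Jun proteins pair through leucine zippers to form AP-1, which binds DNA. Egr1 is a zinc-finger factor that, in gonadotrophs, takes part in transcription of the luteinizing hormone beta gene, and Atf3 is a stress-induced member of the ATF/CREB family. Ier2 is a small nuclear protein, Ier3 is a stress-response protein tied to cell survival, and Btg2 is an antiproliferative protein that promotes shortening of mRNA tails. Not every member encodes a DNA-binding transcription factor, and Ier3 and Btg2 are examples of those that do not. The name of transcription factor therefore covers only part of the set.

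The stretches just before the start sites of 5 of the genes are shown because each holds the core of a cyclic AMP response element (CRE), the site that CREB and ATF proteins bind. Windows of 250 bases before the RefSeq start (GRCm38.p6) were read for 8 of the 10 genes. Those of Egr1 and Ier2 were not read, so the motif counts say nothing about these genes. The half-site TGACG, read on either strand so that it also appears as CGTCA, was in 5 of the 8 windows, against 17.8% of all 32851 RefSeq windows of that length. The Btg2 window also held a full palindromic CRE, TGACGTCA, made of 2 overlapping half-sites, an element present in 1.55% of all windows. AP-1 sites, TGACTCA or TGAGTCA on either strand, were in 0 of the 8 windows and in 4.46% of all windows, and CArG boxes, the serum response factor site, were in 0 of the 8 and in 1.47% of all. A match describes letters and not binding, and a window without a match says only that these letters are not in it. Capitals mark the half-sites and the CRE, and each sequence runs 5′ to 3′ on the strand of its gene: Fos at chr12:85473640-85473889 on the plus strand, and on the minus strand Fosb at chr7:19310046-19310295, Junb at chr8:84978749-84978998, Atf3 at chr1:191183334-191183583 and Btg2 at chr1:134079156-134079405. The first base of the half-site lay 129 and 66 bases before the start in Fos, 60 in Fosb, 106 in Junb and 7 in Atf3, and the CRE of Btg2 began 166 bases before it.
Fos: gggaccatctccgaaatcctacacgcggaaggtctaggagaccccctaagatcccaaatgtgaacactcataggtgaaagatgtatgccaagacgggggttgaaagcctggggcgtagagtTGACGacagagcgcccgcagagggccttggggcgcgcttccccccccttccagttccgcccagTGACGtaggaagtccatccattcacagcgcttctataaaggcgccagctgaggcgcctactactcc
Fosb: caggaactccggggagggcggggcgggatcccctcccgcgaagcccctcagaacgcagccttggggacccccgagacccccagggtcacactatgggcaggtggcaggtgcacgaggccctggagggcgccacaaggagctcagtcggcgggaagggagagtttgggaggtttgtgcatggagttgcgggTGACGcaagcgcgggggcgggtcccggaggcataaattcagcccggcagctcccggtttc
Junb: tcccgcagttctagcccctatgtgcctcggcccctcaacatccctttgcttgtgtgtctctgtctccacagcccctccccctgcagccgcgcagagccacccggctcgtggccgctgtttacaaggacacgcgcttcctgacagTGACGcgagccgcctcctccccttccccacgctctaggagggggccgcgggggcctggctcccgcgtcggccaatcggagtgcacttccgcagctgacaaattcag
Atf3: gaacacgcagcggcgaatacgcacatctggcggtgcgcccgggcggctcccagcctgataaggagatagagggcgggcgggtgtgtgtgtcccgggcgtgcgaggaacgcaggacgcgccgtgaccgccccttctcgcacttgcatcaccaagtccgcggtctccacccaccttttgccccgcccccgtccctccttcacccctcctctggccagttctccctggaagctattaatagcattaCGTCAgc
Btg2: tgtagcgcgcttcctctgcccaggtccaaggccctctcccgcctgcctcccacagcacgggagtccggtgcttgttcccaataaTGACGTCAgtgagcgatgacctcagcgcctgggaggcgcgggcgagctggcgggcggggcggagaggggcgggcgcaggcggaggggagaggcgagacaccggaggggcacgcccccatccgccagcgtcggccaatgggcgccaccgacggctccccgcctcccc
The windows of Jun, Jund and Ier3 held none of the 4 motifs. The RefSeq start of Jund lies upstream of the gene as GENCODE vM21 has it, and that of Atf3 lies inside the GENCODE gene, so neither window adjoins the 5′ end of that annotation. The distances given are from the RefSeq start.

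Values are CPM, the deposited counts of a gene scaled to a common library size with TMM factors. Library totals ran from 48693682 to 73388221 counts, and all 10 genes passed the filter on low counts. The tissue label was checked against its hormone genes, whose summed level was 240067 CPM in cre_AA14_1 and 168501 to 319522 CPM in the other 11 libraries, led by Gh, Prl and Pomc. Gpr101, the floxed gene, was at 0.901 to 2.57 CPM in cre_AA14, 1.29 to 4.29 CPM in cre_Vehicle, 2.20 to 6.60 CPM in ctrl_AA14 and 1.22 to 16.1 CPM in ctrl_Vehicle, so the virus groups overlapped. The 16.1 CPM was from ctrl_Vehicle_3 alone, with 1.65 CPM in ctrl_Vehicle_1 and 1.22 CPM in ctrl_Vehicle_2. The library ctrl_Vehicle_3 also had the highest sum of neuron markers, 1291 CPM, and a link between the 2 was not tested. These are bulk measurements of dispersed pituitary cells, and the labels do not say what flow cytometry selected, if anything. In bulk RNA, fewer cells of a type and less RNA per cell cannot be told apart. The library titled cre_AA14_1 stood apart from the other 11 for the genes described here, so each result that uses it is given with and without it.

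Fos measured 662, 102 and 5.33 CPM in cre_AA14 libraries 1, 2 and 3, against 37.7, 19.8 and 60.9 CPM in cre_Vehicle. It measured 153, 64.6 and 98.4 CPM in ctrl_AA14, against 233, 38.0 and 8.67 CPM in ctrl_Vehicle. The highest and the lowest of the 12 Fos values were thus 2 libraries of the same group, cre_AA14_1 and cre_AA14_3. Fos was the most variable member without cre_AA14_1, with 43.6-fold between the highest and lowest of the other 11 libraries.

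Fosb, the close relative of Fos, measured 305, 8.23 and 12.3 CPM in cre_AA14, against 4.17, 17.2 and 19.7 CPM in cre_Vehicle. In ctrl_AA14 it measured 19.2, 2.75 and 15.9 CPM, against 22.8, 18.1 and 4.996 CPM in ctrl_Vehicle. Apart from cre_AA14_1, every library lay at or below 22.8 CPM, and the ranges of the groups overlapped.

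Jun, the founding AP-1 partner of Fos, measured 254, 18.5 and 24.9 CPM in cre_AA14, against 13.6, 40.4 and 38.6 CPM in cre_Vehicle. Levels in ctrl_AA14 were 27.6, 11.8 and 10.7 CPM, against 53.4, 26.7 and 42.2 CPM in ctrl_Vehicle. In the control-virus mice, only library 1 of ctrl_AA14 reached the range of ctrl_Vehicle. Jun is a gene of 1 exon and shares 232 bases with the antisense gene Junos, whose reads cannot be told apart from those of Jun if counting ignored strand, which the sources used here do not state.

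Junb, a Jun family member with weaker activating capacity, measured 1357, 117 and 42.0 CPM in cre_AA14, against 63.6, 92.3 and 122 CPM in cre_Vehicle. It was at 201, 86.3 and 105 CPM in ctrl_AA14, against 400.1, 55.9 and 37.2 CPM in ctrl_Vehicle. Library 1 was the highest of its group in 3 of the 4 groups, all but cre_Vehicle, and the groups overlapped. Junb shares 173 bases with Prdx2 on the opposite strand, which had 10627 to 16393 counts per library against 2239 to 88619 for Junb, so reads of the shared stretch are uncertain if counting ignored strand.

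Jund, the Jun family member that most tissues express without a stimulus, measured 446, 98.3 and 231 CPM in cre_AA14, against 122, 275 and 300.4 CPM in cre_Vehicle. It measured 102, 114 and 67.3 CPM in ctrl_AA14, against 276, 243 and 284 CPM in ctrl_Vehicle. Jund was the member that stood out least in cre_AA14_1, and in the control-virus mice its 2 groups did not overlap, ctrl_AA14 lying below ctrl_Vehicle. Jund has 1 exon block, of which 877 bases overlap the antisense gene Gm11175; that gene had 0 to 158 counts per library, against 4501 to 29146 for Jund.

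Egr1 measured 1101, 121 and 72.0 CPM in cre_AA14, against 72.3, 116 and 179 CPM in cre_Vehicle. In ctrl_AA14 it was at 303, 43.9 and 114 CPM, against 584, 101 and 44.8 CPM in ctrl_Vehicle. The next highest library after cre_AA14_1 was therefore ctrl_Vehicle_1, and the groups overlapped. Ier2 measured 140, 46.3 and 13.8 CPM in cre_AA14, against 23.2, 22.0 and 31.0 CPM in cre_Vehicle. Its values were 50.9, 22.1 and 16.3 CPM in ctrl_AA14, against 92.1, 20.3 and 11.6 CPM in ctrl_Vehicle. Ier2 had the same 3 highest libraries as Egr1: cre_AA14_1, ctrl_Vehicle_1 and ctrl_AA14_1.

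Ier3 and Atf3 had the 2 lowest medians in CPM over the libraries other than cre_AA14_1, at 3.04 and 1.89 CPM. Ier3 measured 40.5, 2.61 and 2.40 CPM in cre_AA14, against 3.17, 3.04 and 3.15 CPM in cre_Vehicle. It measured 3.40, 3.25 and 2.03 CPM in ctrl_AA14, against 2.91, 2.56 and 6.15 CPM in ctrl_Vehicle. Without cre_AA14_1 it was the steadiest member, with 3.02-fold between the extremes of the other 11 libraries. Atf3 measured 175, 2.14 and 1.13 CPM in cre_AA14, against 1.38, 1.10 and 1.98 CPM in cre_Vehicle. Its levels in ctrl_AA14 were 3.59, 0.758 and 1.88 CPM, against 1.89, 2.93 and 3.10 CPM in ctrl_Vehicle. The lowest of these, in ctrl_AA14_2, rested on 53 counts.

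Btg2 measured 893, 232 and 131 CPM in cre_AA14, against 127, 131 and 178 CPM in cre_Vehicle. It measured 403, 156 and 241 CPM in ctrl_AA14, against 338, 130 and 84.8 CPM in ctrl_Vehicle. The 3 highest libraries were cre_AA14_1, ctrl_AA14_1 and ctrl_Vehicle_1, and no pair of groups was separate.

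**Figure D1:**
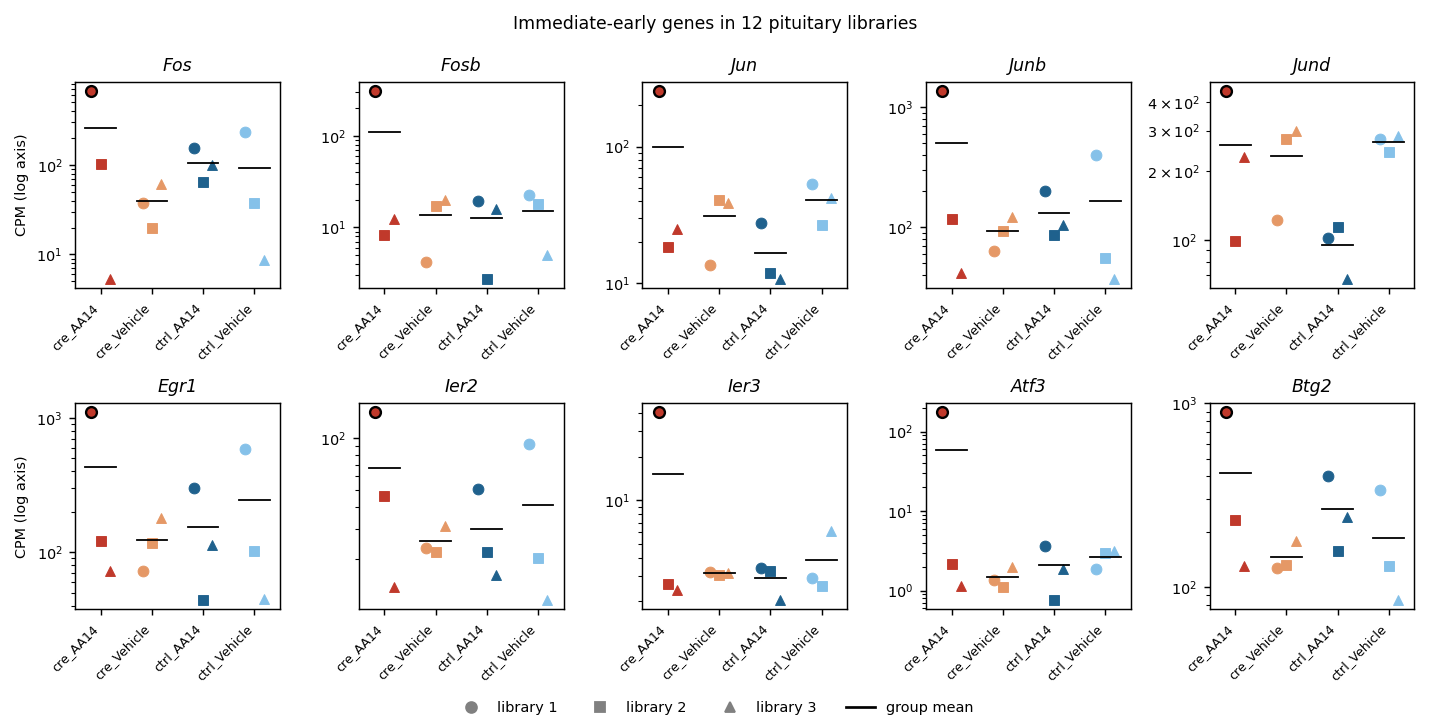
Level of each of the 10 genes in the 12 libraries, in CPM on a log axis, by group; the shape gives the library number, bars are group means of 3 libraries, and the point outlined in black is cre_AA14_1. For all 10 genes cre_AA14_1 is the highest point; Jund in ctrl_AA14 (67.3 to 114 CPM) lies below Jund in ctrl_Vehicle (243 to 284 CPM).

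All 10 genes had their highest level in cre_AA14_1, where 11.4% of the 22630 genes that passed the filter did. Over the median of the other 11 libraries, cre_AA14_1 was 92.4-fold higher for Atf3, 19.2-fold for Fosb, 14.7-fold for Junb, 13.3-fold for Ier3 and 10.9-fold for Fos. It was 9.67-fold higher for Egr1, 9.53-fold for Jun, 6.37-fold for Ier2, 5.72-fold for Btg2 and 1.93-fold for Jund. Thus 9 of 10 were over 5-fold, as were 1.44% of all genes, and the exception was Jund. The 10 genes were chosen with earlier results of these data known, so these shares describe the library and are no test. Even over the highest of the other 11 libraries, the ratio was 48.5-fold for Atf3, 13.4-fold for Fosb and 6.59-fold for Ier3, and it was lowest for Jund at 1.49-fold. Summed, the 10 genes gave 5375 CPM in cre_AA14_1, 749 and 536 CPM in cre_AA14 libraries 2 and 3, and 469 to 934 CPM in cre_Vehicle. The sum was 505 to 1266 CPM in ctrl_AA14 and 527 to 2003 CPM in ctrl_Vehicle. They took 0.526% of all counts in cre_AA14_1 and 0.0476% to 0.213% in the other libraries.

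Among the other 11 libraries, ctrl_Vehicle_1 held the highest value for 6 genes (Fos, Fosb, Jun, Junb, Egr1 and Ier2). The share of all genes that were highest in that library was not computed. The highest value for Atf3 and Btg2 was in ctrl_AA14_1, for Jund in cre_Vehicle_3 and for Ier3 in ctrl_Vehicle_3. The same ctrl_Vehicle_3 held the lowest value for Junb, Ier2 and Btg2, so the highest and lowest values of Junb and Ier2 both came from ctrl_Vehicle. As group means, cre_AA14 came first for 9 of 10 genes and ctrl_Vehicle for Jund. Without cre_AA14_1, ctrl_Vehicle came first for 8 genes and ctrl_AA14 for Fos and Btg2.

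Means carried the same spread. Fos averaged 257 ± 355 CPM in cre_AA14 and 39.5 ± 20.6 CPM in cre_Vehicle (SD, n = 3 each), and 53.8 ± 68.5 CPM in the 2 cre_AA14 libraries that remain without cre_AA14_1. It averaged 105 ± 44.8 CPM in ctrl_AA14 and 93.1 ± 122 CPM in ctrl_Vehicle (SD, n = 3 each). Atf3 averaged 59.3 ± 99.8 CPM in cre_AA14 and 1.49 ± 0.454 CPM in cre_Vehicle (SD, n = 3 each), and 1.63 ± 0.716 CPM in cre_AA14 without cre_AA14_1 (n = 2). Neighbours in the order of group means overlapped in range for every gene but Jund, whose ctrl_AA14 values lay below those of the next group, cre_Vehicle. The share of all genes separate between those groups was not computed.

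The first comparison, AA14 against vehicle in mice with the cre virus, asks how the ligand and its vehicle differed in pituitaries given cre. With all 12 libraries, none of the 10 genes passed the test, edgeR's quasi-likelihood test with Benjamini-Hochberg adjustment over 22630 genes at 0.05; 0.0% of all genes passed. All 10 fold changes were positive, as were 49.7% over all genes, with a median log2 fold change of 2.05. Limma-voom with quality weights, on the same 12 libraries, gave 5 positive and 5 negative with a median of -0.03. At an unadjusted p under 0.05 there were 4 genes (Fosb, Ier3, Atf3 and Btg2), against a background of 2.29%. Atf3 had a log2 fold change of 5.32 (SE 1.57, adjusted p = 0.9999 by edgeR), Fosb of 2.99 (SE 1.28), Fos of 2.70 (SE 1.37) and Junb of 2.45 (SE 1.17). The log2 fold change was 2.28 (SE 0.91) for Ier3, 1.82 (SE 1.13) for Egr1, 1.68 (SE 0.86) for Jun, 1.53 (SE 0.68) for Btg2 and 1.40 (SE 0.85) for Ier2. For Jund it was 0.15 (SE 0.46). The adjusted p was 0.9999 for all 10 genes, and the 2 groups overlapped for all 10. DESeq2 and limma-voom called none of the 10 either, although DESeq2 gave no adjusted p for Atf3.

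Without cre_AA14_1 the same comparison had 4 positive and 6 negative fold changes, where 48.3% of all genes were positive. Their median on the log2 scale was -0.28. The log2 fold change became 0.12 (SE 0.58) for Atf3, -0.43 (SE 0.86) for Fosb, 0.43 (SE 1.23) for Fos, -0.23 (SE 0.88) for Junb and -0.33 (SE 0.40) for Ier3. It was -0.36 (SE 1.00) for Egr1, -0.52 (SE 0.53) for Jun, 0.31 (SE 0.55) for Btg2, 0.23 (SE 0.81) for Ier2 and -0.51 (SE 0.42) for Jund. None of the 10 had an unadjusted p under 0.05 by edgeR, against 2.23% of the 23639 genes tested, of which 2 passed the threshold (0.00846%). Ier3 alone had groups that did not overlap, its 2 remaining cre_AA14 values lying below the 3 of cre_Vehicle, as for 5.77% of all genes. Those Ier3 values rested on few counts, 144 and 128 in cre_AA14 against 157, 227 and 205 in cre_Vehicle. The size of the positive fold changes of the cre mice under AA14 thus rested on 1 library, as did the sign for 6 of the 10 genes.

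The second comparison asks the same of mice with the control virus, which share the floxed alleles but had the control AAV. None of the 10 genes passed edgeR's test, and 1 of 22630 genes did (0.00442%). There were 2 positive fold changes (Fos and Btg2) and 8 negative ones, against 49.1% positive over all genes, and the median log2 fold change was -0.38. Jund had the strongest difference, with a log2 fold change of -1.50 (SE 0.47, adjusted p = 0.141 by edgeR, unadjusted 0.00849). Its 3 ctrl_AA14 values lay below all 3 ctrl_Vehicle values, a pattern that 20.1% of all genes shared in that direction, and 23.8% of all genes had an unadjusted p under 0.05. DESeq2 gave Jund an adjusted p of 0.0275, limma-voom 0.0181 and an edgeR fit of these 2 groups alone 0.0187; over all settings the adjusted p ran from 0.0181 to 0.365. In those 3 fits 2162, 3409 and 2266 genes passed, so Jund was 1 of a large number. Jun had a log2 fold change of -1.29 (SE 0.86, adjusted p = 0.375 by edgeR), and its unadjusted p was 0.161 with all libraries and 0.0205 without cre_AA14_1. For the other 8 genes the log2 fold change lay between -0.66 (Egr1) and 0.53 (Btg2), with a standard error of 0.67 to 1.33. The balance of signs depended on ctrl_Vehicle_1: without it 6 were positive and 4 negative, with a median log2 fold change of 0.51.

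**Figure D2:**
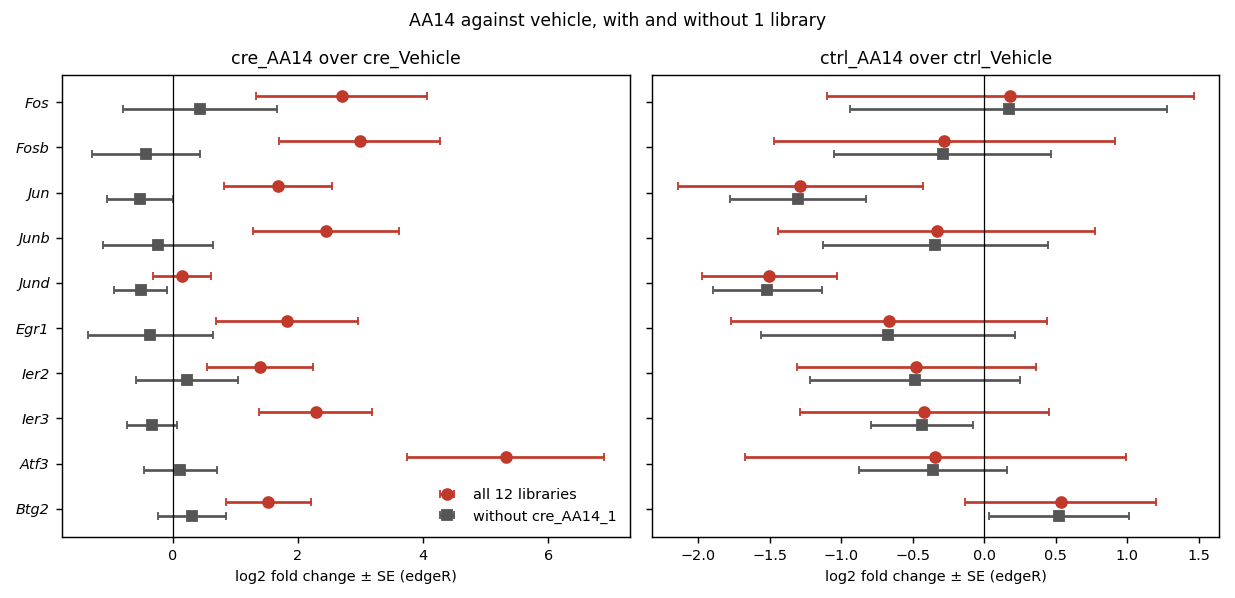
Log2 fold change of AA14 over vehicle for the 10 genes, cre mice on the left and control-virus mice on the right, with points for the edgeR estimate and bars for its standard error; circles use all 12 libraries and squares leave out cre_AA14_1. On the left the median is 2.05 with all libraries and -0.28 without the 1 library; on the right both estimates lie close together, and Jund and Jun are the lowest.

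The difference of the 2 AA14 effects, cre minus control virus, was tested in the same fit. It was positive for all 10 genes, as for 52.3% of all genes, with a median of 2.61 on the log2 scale. That median was 1.295 without ctrl_Vehicle_1 and 0.44 by limma-voom, where 7 were positive and 3 negative. None of the 10 passed edgeR's threshold, and 1 of all genes did (0.00442%). An unadjusted p under 0.05 was found for 3, against 7.03% of all genes: Atf3 at 5.66 (SE 2.00), Jun at 2.97 (SE 1.22) and Jund at 1.66 (SE 0.66), with an adjusted p of 0.631 each. Without cre_AA14_1 it was positive for 8 and negative for 2 (52.0% of all genes were positive), with a median of 0.29 and 0 of the 10 at an unadjusted p under 0.05, against 3.51% of all genes. This difference shares its libraries with the AA14 comparisons and with those of the viruses.

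The virus groups were compared under each treatment. Under AA14, cre_AA14 over ctrl_AA14 gave 10 positive fold changes, against 49.4% positive over all genes, with a median log2 fold change of 1.72 (0.29 by limma-voom, with 6 positive and 4 negative). None of the 10 passed edgeR's threshold (0.0% of all genes did). At an unadjusted p under 0.05 there were 5 genes, against 8.52% of all: Atf3 at 4.83 (SE 1.53), Fosb at 3.11 (SE 1.29), Jun at 2.57 (SE 0.89), Ier3 at 2.39 (SE 0.91) and Jund at 1.45 (SE 0.47), with an adjusted p of 0.582 each. Without cre_AA14_1 there were 3 positive and 7 negative fold changes (49.8% of all genes were positive) with a median of -0.32. By edgeR 0 of the 10 then had an unadjusted p under 0.05, against 2.62% of all genes, and Jund had the most positive log2 fold change, 0.81 (SE 0.41, unadjusted p = 0.0785).

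Under vehicle, cre_Vehicle over ctrl_Vehicle gave 10 negative fold changes, against 53.8% negative over all genes, with a median log2 fold change of -0.55 and a range of -1.24 (Fos) to -0.16 (Fosb). No standard error was under 0.46, none of the 10 passed edgeR's threshold or had an unadjusted p under 0.05 (0.00442% and 2.0% of all genes did), and the lowest unadjusted p was 0.362. Leaving out ctrl_Vehicle_1 turned 6 of the 10 positive, with a median of 0.34. By limma-voom 2 were positive and 8 negative, with a median of -0.20. DESeq2 and limma-voom called none of the 10 in either virus comparison.

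Levels can be compared between genes once divided by exon length, here as CPM per kilobase of annotated exon. In the median of the 11 libraries other than cre_AA14_1, Jund was the most abundant at 138.5 CPM per kilobase, followed by Btg2 at 56.9, Junb at 40.1, Fos at 25.9 and Egr1 at 25.4. Ier2 followed at 14.5, Jun at 8.36, Ier3 at 2.69, Fosb at 2.54 and Atf3 at 0.877 CPM per kilobase. In cre_AA14_1 the order was Junb at 589.8, Btg2 at 325.7, Fos at 281.6, Jund at 267.6 and Egr1 at 245.6 CPM per kilobase. Atf3, the lowest of the 10 elsewhere, was at 81.0 CPM per kilobase there, close to Jun at 79.7. Exon length is the union of all annotated exons, which understates genes with long rarely used exons.

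Since AP-1 dimers draw on whichever Fos and Jun proteins are present, the share of each transcript among the 5 AP-1 subunits was computed per kilobase. In cre_AA14, Fos made up 22.2%, 27.1% and 1.34% of the 5, and in cre_Vehicle 13.2%, 3.69% and 9.44%. It made up 28.9%, 20.0% and 31.3% in ctrl_AA14, against 21.6%, 8.19% and 1.81% in ctrl_Vehicle. Jund made up 21.1%, 36.7% and 82.0% in cre_AA14, against 60.1%, 72.0% and 65.7% in cre_Vehicle. Its share was 27.2%, 49.7% and 30.2% in ctrl_AA14, against 36.1%, 73.8% and 83.4% in ctrl_Vehicle. Jund had the largest share of the 5 in every library except cre_AA14_1, ctrl_AA14_1, ctrl_AA14_3 and ctrl_Vehicle_1, where Junb had it, at 46.5% in cre_AA14_1.

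**Figure D3:**
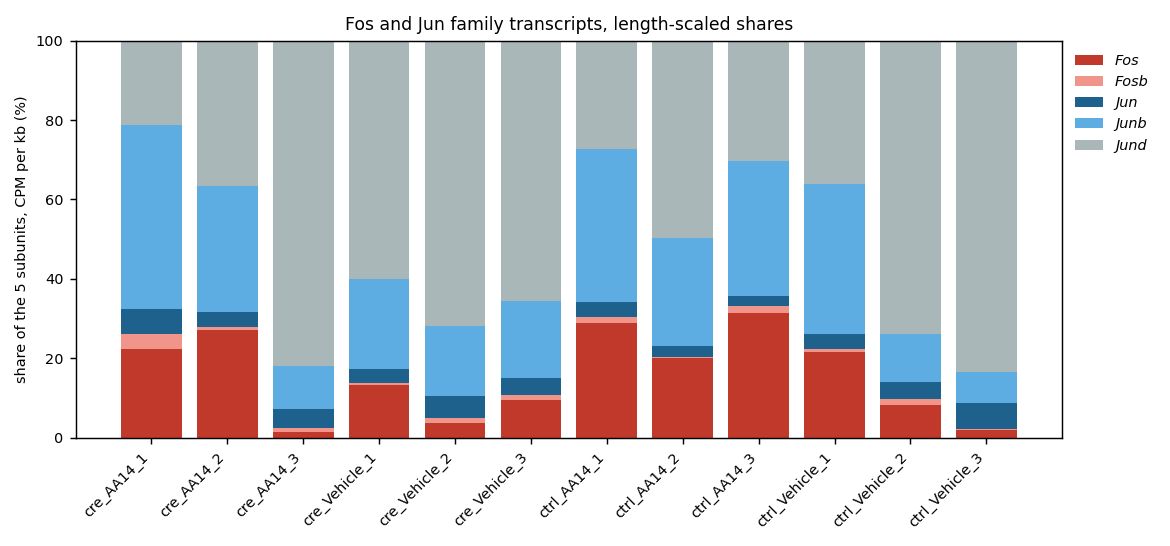
Share of Fos, Fosb, Jun, Junb and Jund among the 5 AP-1 subunit transcripts in each library, from CPM per kilobase, in percent; the 5 segments of a bar add to the whole. The Jund share is lowest in cre_AA14_1 (21.1%) and highest in ctrl_Vehicle_3 (83.4%).

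The members did not all vary together. Over the 11 libraries without cre_AA14_1, Pearson's r of log2(CPM + 0.5) was 0.92 for Junb and Ier2, 0.90 for Junb and Egr1, 0.89 for Junb and Btg2, 0.88 for Fos and Junb and 0.86 for Fos and Btg2. Jun and Jund went together with r = 0.85, while r was -0.45 for Fos and Jund and -0.43 for Jund and Btg2. These are descriptions over libraries that differ in group and depth, given without a test. Among 14026 other genes, those closest to the mean pattern of the 10 over those 11 libraries were Zfp36 (r = 0.96), Rasd1 (r = 0.92), Dusp1 (r = 0.85), Snord104 (r = 0.82) and Arc (r = 0.82). With cre_AA14_1 included, they were Zfp36 (r = 0.99), Gadd45b (r = 0.94), Ppp1r15a (r = 0.93), Dusp5 (r = 0.91) and Socs3 (r = 0.91). Spearman's rho, which uses ranks only, was 0.97 for Zfp36 over the same libraries. It was 0.71 for Gadd45b, 0.69 for Ppp1r15a, 0.55 for Dusp5 and 0.50 for Socs3. Zfp36, which encodes a protein that destabilises short-lived mRNAs, headed both orders.

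Jund and, less sharply, Jun followed another split of the libraries, which was noticed in these data. In 5 libraries (ctrl_AA14 1, 2 and 3, cre_AA14_2 and cre_Vehicle_1) the nuclear RNA Malat1 was at 1105 to 1560 CPM, and in the other 7 at 199 to 549 CPM. Jund was at 67.3 to 122 CPM in the 5 libraries and at 231 to 446 CPM in the 7, or 231 to 300.4 CPM without cre_AA14_1. It was the 1 member whose ranges did not overlap, as did 13.1% of all genes in that direction. Jun was at 10.7 to 27.6 CPM in the 5 libraries and at 24.9 to 254 CPM in the 7, and the other 8 genes overlapped more widely. In the control-virus mice the split coincided with AA14, so the 2 cannot be told apart there. Within the cre mice each treatment had libraries on both sides. There Jund was at 98.3 CPM (cre_AA14_2) and 122 CPM (cre_Vehicle_1) on the high-Malat1 side and at 231 to 446 CPM on the other. Jun (13.6 to 18.5 against 24.9 to 254 CPM) and Fosb (4.17 to 8.23 against 12.3 to 305 CPM) were also separate within the cre mice. The remaining members overlapped, and the share of all genes separate within the cre mice was not computed.

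**Figure D4:**
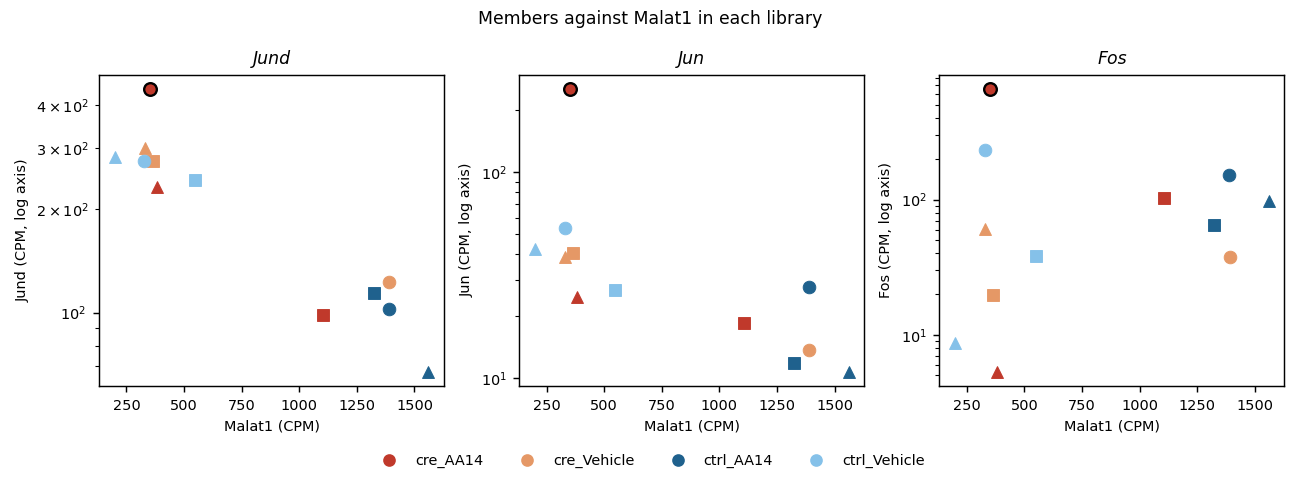
Jund, Jun and Fos (CPM, log axis) against Malat1 (CPM) in each of the 12 libraries, coloured by group, with cre_AA14_1 outlined in black. Jund is at 67.3 to 122 CPM in the 5 libraries over 1000 CPM of Malat1 and at 231 to 446 CPM in the other 7, while Fos spans a wide range on both sides.

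Other genes of the same response were read from lists of related genes, of which no gene passed edgeR's threshold in any of the 5 comparisons, with or without cre_AA14_1. As a background for this list and the later ones, 11.4% of all genes were highest in cre_AA14_1. The lists too were chosen with earlier results of these data known, so the comparison with that share is a description and no test. For AA14 in cre mice 49.7% of all genes were positive, and 48.3% without cre_AA14_1. Of 30 other immediate-early genes, 22 had their highest level in cre_AA14_1. The sum of the 30 was 3396 CPM there, against 599 to 1348 CPM in the other 11 libraries. The matricellular gene Ccn1 was at 149.6 CPM in cre_AA14_1 against at most 66.7 CPM elsewhere, and Arc, best known from active neurons, at 103 CPM against at most 46.9 CPM. Gadd45b, a stress-response gene, was at 149 CPM against at most 25.8 CPM, and Klf4, a zinc-finger factor, at 48.2 CPM against at most 8.03 CPM. For AA14 against vehicle in cre mice, 23 of the 30 were positive with a median log2 fold change of 0.81, and without cre_AA14_1 10 were positive with a median of -0.21. Of 11 other AP-1 family genes, 5 were highest in cre_AA14_1, among them Fosl1 at 8.68 CPM against at most 0.325 CPM elsewhere, Maff at 124 CPM against at most 5.28 CPM and Fosl2 at 380 CPM against at most 175 CPM. For AA14 in cre mice 7 of these 11 were positive with a median log2 fold change of 0.21, and 2 of 11 without cre_AA14_1 with a median of -0.25.

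Genes that shut the response down were also high in that library. Of 14 feedback inhibitors, 10 were highest in cre_AA14_1: Zfp36 was at 297 CPM against at most 67.4 CPM elsewhere, and Socs3, an inhibitor of cytokine signalling, at 203 CPM against at most 37.6 CPM. The MAP kinase phosphatases Dusp5 and Dusp1 were at 69.1 and 607 CPM there, against at most 6.68 and 296 CPM elsewhere. For AA14 in cre mice 12 of the 14 were positive with a median log2 fold change of 0.16, and 2 of 14 without cre_AA14_1 with a median of -0.33. The 19 upstream kinases and factors (MAP kinases, CREB, SRF partners) summed to 954 CPM in cre_AA14_1, inside the 716 to 1137 CPM of the other libraries, and none was over 2-fold the median of those. For AA14 in control-virus mice 15 of these 19 were negative, against 50.9% of all genes. By edgeR 10 of the 19 had an unadjusted p under 0.05 in that direction, against 15.8% of all genes. In those mice AA14 coincided with the Malat1 split described above, so the 2 cannot be told apart. For AA14 in cre mice 9 of the 19 were positive and 10 negative. There 0 of the 19 had an unadjusted p under 0.05 by edgeR, against 2.29% of all genes.

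Markers of stress, inflammation and other cell types were read beside the members in cre_AA14_1. The heat shock genes Hspa1b and Hspa1a were at 762 and 717 CPM there, against at most 115 and 122 CPM elsewhere, and Hspb1 was at 154 CPM against at most 42.9 CPM. Dnajb1 was at 226 CPM against 35.5 to 266 CPM, and 7 of the 10 in the list were not highest there. All 9 tested inflammation genes of a list of 11 were highest there, and the list summed to 184 CPM against 3.95 to 10.2 CPM elsewhere; Ptgs2, the inducible cyclooxygenase, was at 57.1 CPM against at most 0.95 CPM, and the chemokine Cxcl1 at 29.8 CPM against at most 2.44 CPM. Il6 and Cxcl2, which did not pass the filter, were at 14.1 and 10.7 CPM against at most 0.177 and 0.286 CPM. Macrophage markers summed to 183 CPM against 125 to 224 CPM elsewhere, neutrophil markers to 5.21 against 3.40 to 20.9, endothelial markers to 199 against 136 to 215, and fibroblast markers to 431 against 336 to 572 CPM. Oligodendrocyte markers summed to 465 CPM against 69.5 to 3313, neuron markers to 623 against 515 to 1291, and stem cell markers to 167 against 93.4 to 298 CPM. All of these lay inside the range of the other libraries. Red cell markers were lowest in cre_AA14_1, at 778 CPM against 1235 to 7782 CPM. The 7 hormone genes were mixed: Prl and Pomc were highest there, at 91939 CPM against at most 73783 CPM and 40763 CPM against at most 33398 CPM. Gh was second lowest of the 12 libraries, at 99590 CPM against 90441 to 241856 CPM, Fshb ranked 10, at 867 CPM against 671 to 1577 CPM, and Cga, Lhb and Tshb ranked 7, 4 and 6. The part that any of these plays in the levels of the 10 genes was not tested.

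**Figure D5:**
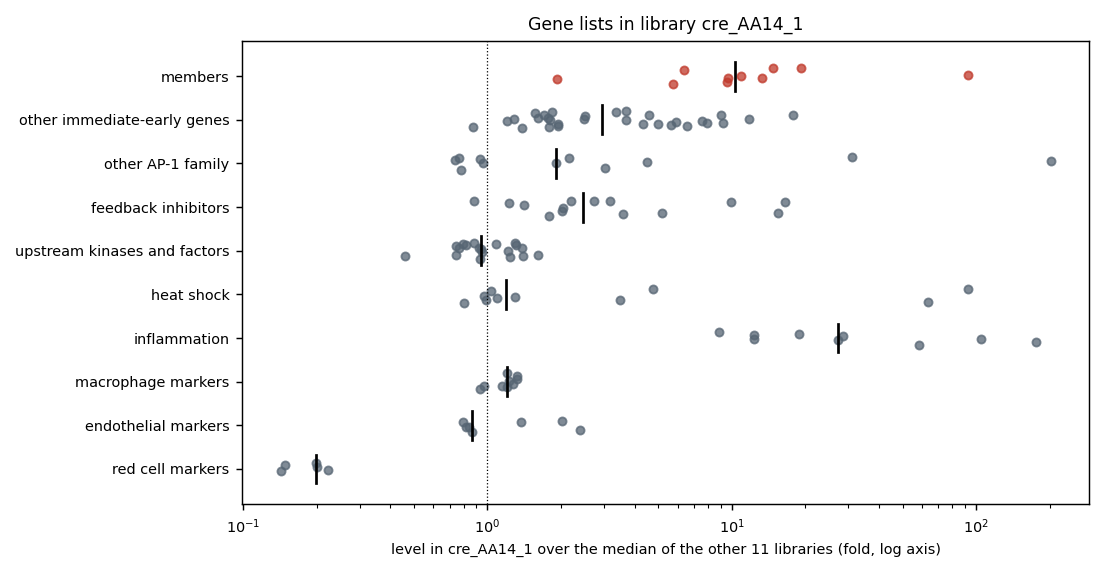
Level in cre_AA14_1 over the median of the other 11 libraries (fold, log axis) for the 10 genes and for related and marker lists; each point is 1 gene that passed the filter and each bar the median of its list. The 10 genes run from 1.93-fold (Jund) to 92.4-fold (Atf3), the upstream kinases lie around 1, and the red cell markers lie below it.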

How the data were processed

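Total RNA from pituitary cells went into NEBNext Ultra libraries for paired-end NovaSeq sequencing, and reads were mapped to the mouse genome with hisat2 2.0.0 after quality filtering, per the labels' protocols. The submitters' processing notes name featureCounts 1.5.0-p3, DESeq 1.8.3 and build GRCm38. The authors deposited 1 table of raw counts per gene for each of the 12 libraries, per the file headers. The gene annotation, strandedness and multi-mapping rule used are not stated in those sources. Each library has 55421 gene IDs, of which 55154 matched a symbol in GENCODE vM21 (GRCm38). Unmatched IDs took no more than 0.0135% of the counts of any library.

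From these counts, edgeR 4.0.16 in R 4.3.3 was used with its own filter on low counts (22630 genes kept), TMM scaling, 1 mean per group over all 12 libraries, the quasi-likelihood test and Benjamini-Hochberg adjustment over all genes tested, with a threshold of 0.05. The fit was tested on simulated counts with the same dispersion for all genes and no outlying library. That simulation therefore does not show how the fit behaves with a library like cre_AA14_1. The fit was also repeated without cre_AA14_1 (23639 genes kept). Standard errors were derived from the fold change and the F statistic. The alternatives were DESeq2 1.42.0, limma-voom 3.58.1 with quality weights, other size factors and filters, a replicate block, a fit of the compared groups alone, and each library left out in turn. Patterns were compared on log2(CPM + 0.5). All 10 genes are reported. The 5 genes of most similar pattern were taken by Pearson's r among annotated genes of at least 1 CPM on average. Up to 4 genes are named from each list, those with the largest fold in cre_AA14_1 over the median of the other 11 libraries; the hormone genes were named after their values were seen. The genes and lists were chosen with earlier results of these data known. The Malat1 split at 1000 CPM was chosen after its values were seen. Counting error depends on the counts of each gene, which ran from 128 to 2646 per library for Ier3 and from 53 to 11397 for Atf3. It was not compared with the spread between libraries.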

Additional observations from a re-analysis of the deposited data

How the results depend on the processing

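None of the 10 genes was called in any comparison under any of the 20 alternatives, except that Jund was called for AA14 in control-virus mice: 1 gene by DESeq2, 1 by limma-voom and 1 in the fit of these groups alone. The cause was not tested. A fit of the compared groups alone could not be made for the difference of the AA14 effects, which uses all 4 groups. Over all genes, DESeq2, limma-voom and the fit of the compared groups alone called 2162, 3409 and 2266 genes there, against 1 in the fit reported.

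Limma-voom with quality weights turned several signs. For AA14 in cre mice it gave log2 fold changes of -1.13 for Fos, -0.22 for Junb, -0.21 for Jund, -0.20 for Egr1 and -0.13 for Ier2. For AA14 in control-virus mice it gave 0.078 for Junb and 0.042 for Ier3. For cre_AA14 over ctrl_AA14 it gave -2.32 for Fos, -0.48 for Junb, -0.23 for Ier2 and -0.33 for Btg2. For cre_Vehicle over ctrl_Vehicle it gave 0.041 for Jund and 0.082 for Ier3, and for the difference of the AA14 effects -1.67 for Fos, -0.30 for Junb and -0.12 for Btg2. The cause was not tested.

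Replicate numbers did not clearly pair the libraries. Of 18 pairs with the same number, 5 had a correlation of deviations over 0.1 (range -0.56 to 0.36), and 2 of 12 libraries matched their own number best. These were computed over 16406 genes, not the 10 alone. In cre_AA14, ctrl_AA14 and ctrl_Vehicle, library 1 was the highest of its group for every member but Jund, Ier3 and Atf3. In cre_Vehicle it was the highest for Ier3 alone. The share of all genes with that pattern was not computed, and a factor shared by libraries of 1 number was not tested. With the replicate block the median log2 fold change of the 10 genes was 0.97 for AA14 in cre mice, 1.19 for cre_AA14 over ctrl_AA14 and 1.19 for the difference of the AA14 effects, with all 10 positive in each. For cre_Vehicle over ctrl_Vehicle it was -0.02, with 5 positive and 5 negative. The block gave 0.42 for Junb for AA14 in control-virus mice, and for cre_Vehicle over ctrl_Vehicle 0.28 for Fosb, 0.39 for Junb, 0.16 for Egr1, 0.059 for Ier2 and 0.031 for Btg2. It called none of the 10.

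With each library left out in turn, the following log2 fold changes spanned 0. For AA14 in cre mice the range was -0.43 to 3.53 for Fosb, -0.52 to 2.17 for Jun, -0.23 to 2.99 for Junb, -0.51 to 0.54 for Jund, -0.36 to 2.31 for Egr1 and -0.33 to 2.78 for Ier3. For AA14 in control-virus mice it was -0.36 to 2.18 for Fos, -0.73 to 0.19 for Fosb, -0.80 to 1.49 for Junb, -1.64 to 1.07 for Egr1, -1.12 to 0.90 for Ier2, -0.64 to 0.083 for Ier3 and -1.02 to 0.041 for Atf3. For cre_AA14 over ctrl_AA14 it was -0.97 to 1.86 for Fos, -0.29 to 3.66 for Fosb, -0.72 to 2.50 for Junb, -0.67 to 2.46 for Egr1, -0.21 to 2.90 for Ier3, -0.35 to 5.50 for Atf3 and -0.55 to 1.09 for Btg2. For cre_Vehicle over ctrl_Vehicle it was -1.78 to 0.76 for Fos, -0.58 to 0.27 for Fosb, -1.30 to 0.99 for Junb, -0.43 to 0.10 for Jund, -1.49 to 0.74 for Egr1, -1.15 to 0.67 for Ier2, -0.54 to 0.19 for Ier3 and -0.69 to 0.44 for Btg2. For the difference of the AA14 effects it was -0.14 to 3.82 for Fosb and -0.22 to 1.42 for Btg2. The low end was without cre_AA14_1 in all of these ranges for AA14 in cre mice, for cre_AA14 over ctrl_AA14 and for the difference, and the largest upward shifts in control-virus mice came without ctrl_Vehicle_1. The other size factors and filters changed no sign of a member and no call of one.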
